A study of Mus musculus with 8 samples.

Results

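The interleukin-1 (IL-1) family genes described here are 10 genes chosen by symbol from the 53647 genes of the count table: the ligands Il1a, Il1b and Il18, the antagonist Il1rn, the receptor genes Il1r1, Il1r2 and Il1rap, the binding protein gene Il18bp, and Nlrp3 and Casp1, which serve the processing of the ligands. All 10 had enough counts to be tested, among 13412 genes that did. They were measured by sequencing polyA RNA in 8 libraries of C57BL/6 mouse leukemia macrophages, sorted after 12 h in culture. The 4 libraries named Mac came from leukemia macrophages kept alone, and the 4 named E-Mac from leukemia macrophages kept together with mesenchymal stromal cells (MSC). No further treatment or allele is named for either group. Not given in the sources used here are the leukemia model, the origin of the MSC, the age of the mice and the gate of the sort. Nothing says that the libraries of a group came from separate animals or cultures, so p-values measure the spread between these libraries, which may be technical.

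IL-1 alpha and IL-1 beta act through the receptor IL1R1, which needs the accessory chain IL1RAP to signal to NF-kB. The antagonist encoded by Il1rn occupies IL1R1 without signalling, and IL1R2 is a decoy that binds ligand but lacks the signalling domain. IL-1 beta and IL-18 are made as precursors and are cut by caspase-1, the product of Casp1, inside inflammasomes such as the one built on NLRP3, and IL-18 is held in solution by IL18BP. In macrophages the transcription of Il1b and Nlrp3 is known as a priming step, and release of the mature cytokine as a separate one, so transcript levels alone do not give the amount of active cytokine.

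The genes lie at 8 places on 6 chromosomes in the mm10 annotation (GENCODE M21), and all are annotated as protein coding. Il1r2 (chr1:40074079-40125231, plus strand) and Il1r1 (chr1:40225080-40317257, plus strand) head a row of receptor genes. Il1a (chr2:129299610-129309972) and Il1b (chr2:129364570-129371139) are neighbours on the minus strand of the chromosome that also holds Il1rn (chr2:24336853-24351494, plus strand). Il18bp (chr7:102014885-102018690, minus strand), Casp1 (chr9:5298517-5307265), Il18 (chr9:50554827-50581840), Nlrp3 (chr11:59541568-59566956) and Il1rap (chr16:26581704-26730117) stand alone, the last 4 on the plus strand. Exons of Il1a, Il1b, Il1rap and Il18bp share 11.2%, 1.3%, 4.9% and 2.6% of their bases with a gene on the opposite strand (Gm14023, Il1bos, Gm20319 and Numa1). The sources used here do not say whether the counting used strand, and a read in those bases could belong to either gene.

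The start regions of Il1a, Il1b and Il1rn are printed because the balance between these agonists and their antagonist changed in the values that follow. Each line gives the 150 bases before the first RefSeq transcript start (GRCm38.p6, the assembly of mm10), 5′ to 3′ on the strand of the gene, at chr2:129309973-129310122 (minus) for Il1a, chr2:129371140-129371289 (minus) for Il1b and chr2:24336710-24336859 (plus) for Il1rn. Capitals mark matches to the motifs searched.
Il1a: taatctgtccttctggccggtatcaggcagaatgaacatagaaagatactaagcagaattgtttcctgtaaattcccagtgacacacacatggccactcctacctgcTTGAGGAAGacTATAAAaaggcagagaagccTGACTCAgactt
Il1b: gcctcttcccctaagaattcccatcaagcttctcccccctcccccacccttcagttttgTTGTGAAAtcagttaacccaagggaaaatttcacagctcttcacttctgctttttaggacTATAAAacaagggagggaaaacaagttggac
Il1rn: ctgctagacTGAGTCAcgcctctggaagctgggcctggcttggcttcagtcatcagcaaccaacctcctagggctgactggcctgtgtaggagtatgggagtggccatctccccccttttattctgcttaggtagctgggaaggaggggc

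The printed stretches of Il1a and Il1b each held a TATA box (TATAAA), 32 and 31 bases before the start, and that of Il1rn did not. An AP-1 site (TGANTCA) lay 12 bases before the start of Il1a and 141 before that of Il1rn. A C/EBP core (TTNCNNAA, on either strand) lay at 91 bases before Il1b and at 43 before Il1a, where it overlapped the PU.1 core (GAGGAAG) at 41. Over the full RefSeq windows of 250 bases before to 50 after a start, both strands searched, the 10 genes had 14 windows. Among all such windows, 13.6% held the TATA box, 7.81% the AP-1 site, 13.6% the PU.1 core and 40.7% the C/EBP core. The NF-kB decamer, in 8.46% of windows, was found for Il1r1 and Nlrp3, the interferon-response core (GAAANNGAA), in 8.56%, for Il1rap, and the gamma-activated site core (TTCNNNGAA), in 8.3%, for Il1r2. These are matches of letters within short windows and say nothing of what binds there.

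Of the 10 genes 9 rose and 1, Il1rap, fell in E-Mac (edgeR quasi-likelihood test, Benjamini-Hochberg adjusted p under 0.05 over the 13412 genes). Over all genes tested 58.3% changed, 29.5% higher and 28.8% lower. The median log2 fold change, E-Mac over Mac, was 1.22 over the 10 genes and -0.00 over all genes. The values of the 4 Mac and the 4 E-Mac libraries did not overlap for 9 of the 10, against 53.9% of all genes tested. The gene whose groups overlapped was Il1r1.

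**Figure D1:**
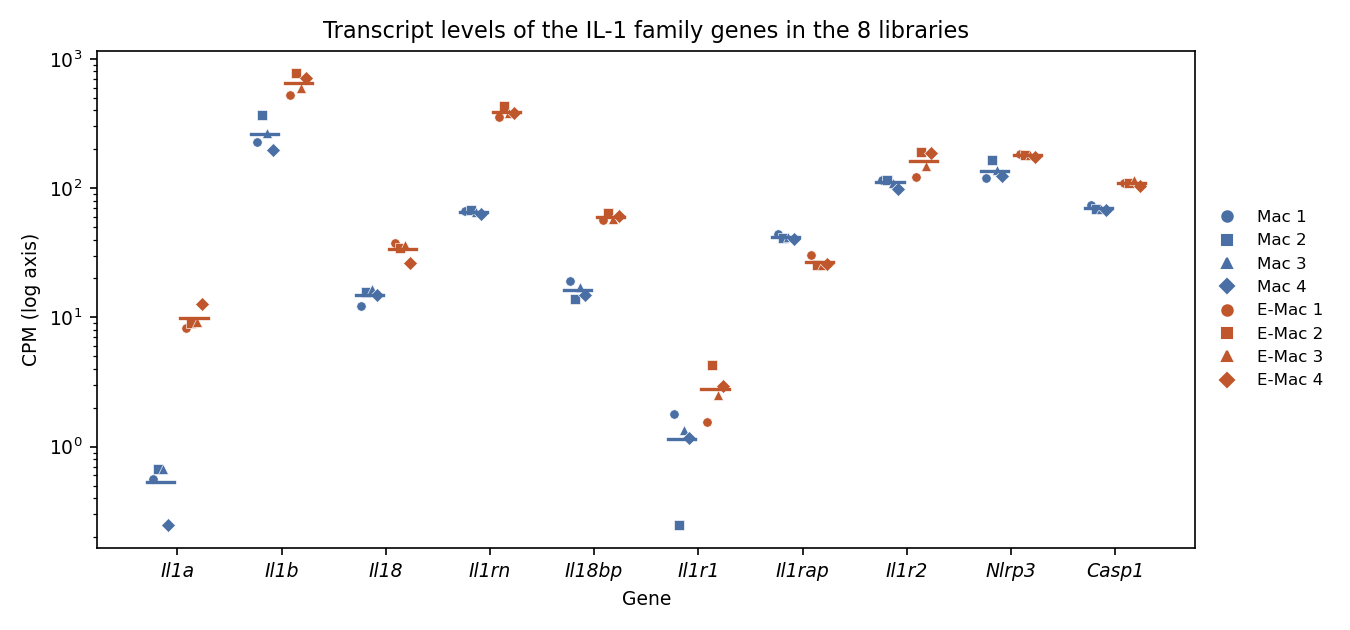
Counts per 1000000 (CPM, log axis) of the 10 IL-1 family genes in the 4 Mac (blue) and 4 E-Mac (orange) libraries. Each point is a library and each bar a group mean. All but Il1r1 have groups that do not overlap, and Il1rap alone is lower in E-Mac.

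Among the agonists, Il1a showed the widest change. It was close to undetected in Mac, at 0.559, 0.666, 0.676 and 0.247 counts per 1000000 (CPM) in Mac 1 to 4, and stood at 8.26, 9.08, 9.16 and 12.8 CPM in E-Mac 1 to 4. Every E-Mac library was thus far above every Mac library. The group means were 0.537 ± 0.201 and 9.82 ± 2.02 CPM (SD, n = 4 each), a log2 fold change of 4.19 ± 0.27 (standard error; edgeR adjusted p = 2.74e-08), or 18.3-fold. The Mac values rest on 9, 8, 11 and 4 reads, so the size of the fold is less certain than its direction.

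Il1b was abundant in both groups and rose less. Its level was 226, 367, 267 and 198 CPM in Mac 1 to 4 and 529, 772, 598 and 715 CPM in E-Mac 1 to 4. Mac 2 was the highest of its group, and E-Mac 2 and E-Mac 4 were the highest of theirs, with a gap between the groups. The means were 264 ± 73.9 and 653.5 ± 110.1 CPM (SD, n = 4 each), a log2 fold change of 1.31 ± 0.19 (edgeR adjusted p = 0.000206). Without Mac 2 the log2 fold change was 1.52.

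In Mac 2, several genes known to respond quickly to NF-kB stood high along with Il1b. Nfkbia, the gene of an NF-kB inhibitor, was at 529.5 CPM in Mac 2 and at 189 to 278 CPM in the other Mac libraries. Tnfaip3, a brake on the same pathway, was at 310 against 88.3 to 136 CPM. The neutrophil chemokine gene Cxcl2 was at 328 against 70.8 to 139 CPM, just above its highest E-Mac library (205 to 327 CPM). These 3 genes were picked after their values were seen, and the part of such a difference between libraries in the Il1b result was not tested.

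Il18, the third ligand, rose as well. Its level was 12.2, 15.8, 16.5 and 14.9 CPM in Mac 1 to 4 and 37.6, 34.5, 36.1 and 26.5 CPM in E-Mac 1 to 4. The groups were apart, and E-Mac 4 was the lowest of the E-Mac libraries. The log2 fold change was 1.18 ± 0.13 (edgeR adjusted p = 4.56e-06).

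The genes of both natural inhibitors rose. Il1rn was at 66.3, 67.1, 64.9 and 62.9 CPM in Mac 1 to 4 and at 354, 434, 381 and 382 CPM in E-Mac 1 to 4. Within each group the libraries lay close together, and the groups were far apart. The means were 65.3 ± 1.82 and 388 ± 33.5 CPM (SD, n = 4 each), a 5.94-fold rise with a log2 fold change of 2.57 ± 0.08 (edgeR adjusted p = 2.28e-11), the smallest adjusted p of the 10 genes. Il18bp was at 19.0, 13.99, 17.1 and 14.98 CPM in Mac 1 to 4 and at 56.9, 64.2, 58.1 and 60.3 CPM in E-Mac 1 to 4. No library of one group came near the other, and the log2 fold change was 1.88 ± 0.10 (edgeR adjusted p = 4.76e-09).

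The balance between inhibitor and cytokine was read from levels per length, in CPM per kb of annotated exon, with no test. The ratio of Il1rn to Il1b in Mac 1 to 4 was 0.101, 0.0630, 0.0838 and 0.110, and that in E-Mac 1 to 4 was 0.231, 0.194, 0.220 and 0.184. It was higher in every E-Mac library than in any Mac library, with a mean 2.32 times as high, and remained below 1 in all 8. Against Il1a the ratio of Il1rn went the other way, from a mean of 50.9 ± 27.0 in Mac to 14.5 ± 2.71 in E-Mac (SD, n = 4 each). The Mac values of that ratio rest on the few reads of Il1a. The ratio of Il18bp to Il18 overlapped between the groups, with a range of 0.301 to 0.529 over the Mac libraries and of 0.515 to 0.775 over the E-Mac libraries. Il1b exceeded Il1a by a mean ratio of 557 ± 196 in Mac and 69.9 ± 12.8 in E-Mac (SD, n = 4 each), and the ratio of Il1b to Il18 overlapped between groups, at 7.16 to 12.5 and 7.60 to 14.6.

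**Figure D2:**
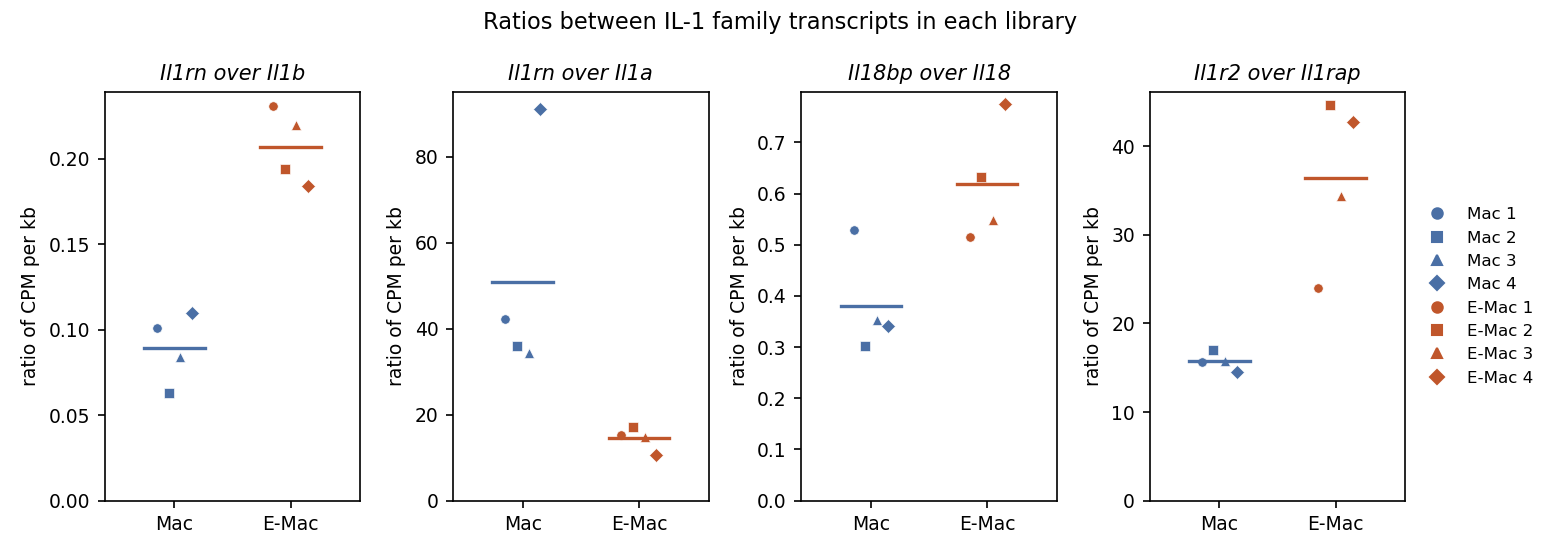
Ratios of CPM per kb between IL-1 family transcripts in each library, on linear axes that start at 0. Points are libraries and bars group means. Il1rn over Il1b and Il1r2 over Il1rap are higher in all 4 E-Mac libraries, Il1rn over Il1a is lower in all 4, and Il18bp over Il18 overlaps between the groups.

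The receptor genes did not move together. The decoy gene Il1r2 was at 116, 117, 110.4 and 99.0 CPM in Mac 1 to 4 and at 123, 189, 147 and 187 CPM in E-Mac 1 to 4. The groups did not overlap, but E-Mac 1 was only just above the Mac libraries while E-Mac 2 and E-Mac 4 were well above them. The log2 fold change was 0.55 ± 0.12 (edgeR adjusted p = 0.00249), and 0.30 (adjusted p = 0.00153) without E-Mac 2 and E-Mac 4.

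Il1rap, whose product is the shared accessory chain of the receptors for IL-1, IL-33 and IL-36, was the gene that fell. It stood at 44.4, 40.8, 41.6 and 40.4 CPM in Mac 1 to 4 and at 30.5, 25.2, 25.5 and 26.0 CPM in E-Mac 1 to 4. All E-Mac libraries were below all Mac libraries, E-Mac 1 the least so. The log2 fold change was -0.64 ± 0.09 (edgeR adjusted p = 3.16e-05). The ratio of Il1r2 to Il1rap per length lay between 14.6 and 17.0 in the Mac libraries and between 24.0 and 44.6 in the E-Mac libraries, without overlap.

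Il1r1, the signalling receptor, was the least abundant of the 10 genes per length in both groups. It had 29, 3, 22 and 19 reads in Mac 1 to 4 (1.80, 0.250, 1.35 and 1.17 CPM) and 20, 62, 37 and 41 reads in E-Mac 1 to 4 (1.56, 4.26, 2.49 and 2.95 CPM). E-Mac 1 lay within the range of Mac, and Mac 2 was far below the other Mac libraries. The log2 fold change of 1.26 ± 0.42 passed the threshold (edgeR adjusted p = 0.0214) but did not without E-Mac 2 (1.01, adjusted p = 0.0759), without E-Mac 2 and E-Mac 4 (0.80, adjusted p = 0.145) or in the fit with a replicate block (1.26, adjusted p = 0.0655).

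Processing genes rose by smaller steps. Nlrp3, which encodes the sensor of the best studied inflammasome, was at 119.6, 164, 138 and 123 CPM in Mac 1 to 4 and at 182, 181, 181 and 174 CPM in E-Mac 1 to 4. Mac 2 again was the highest Mac library, and the 4 E-Mac libraries were nearly equal, with a coefficient of variation of 2.11% against 14.8% in Mac. Its log2 fold change was 0.40 ± 0.09 (edgeR adjusted p = 0.00206), and 0.26 with library size only, a scaling that lowers the median of all genes to -0.15. Casp1 was at 73.5, 68.5, 69.5 and 67.2 CPM in Mac 1 to 4 and at 110.2, 110.3, 115 and 104 CPM in E-Mac 1 to 4. Its libraries were tight in both groups, and it rose with a log2 fold change of 0.65 ± 0.06 (edgeR adjusted p = 1.27e-06).

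Ordered by level per length in Mac, Il1b came first at 139 ± 38.8 CPM per kb, followed by Il1r2 (58.0 ± 4.32), Casp1 (46.5 ± 1.80), Nlrp3 (33.6 ± 4.99), Il18 (14.4 ± 1.82), Il1rn (11.8 ± 0.330), Il18bp (5.37 ± 0.740), Il1rap (3.68 ± 0.159), Il1a (0.272 ± 0.102) and Il1r1 (0.180 ± 0.102; all SD, n = 4). Neighbours in this order had library ranges that did not overlap, except Il18 with Il1rn and Il1a with Il1r1. In E-Mac the order was Il1b (343 ± 57.8), Il1r2 (84.6 ± 16.9), Casp1 (73.3 ± 2.98), Il1rn (70.1 ± 6.06), Nlrp3 (44.3 ± 0.937), Il18 (32.7 ± 4.80), Il18bp (19.8 ± 1.05), Il1a (4.98 ± 1.02), Il1rap (2.36 ± 0.217) and Il1r1 (0.442 ± 0.177; SD, n = 4). There Il1r2 overlapped Casp1 and Casp1 overlapped Il1rn. Il1rn thus passed Il18 and Nlrp3 in rank, and Il1a passed Il1rap. The length is that of all annotated exons together, 5535 bases for Il1rn and 1907 for Il1b, so these levels depend on which transcripts the annotation holds.

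The row of receptor genes on chromosome 1 runs from Il1r2 and Il1r1 through Il1rl2, Il1rl1 and Il18r1 to Il18rap, all on the plus strand and ending at base 40551705. Its genes moved in different directions. Il1rl2, the IL-36 receptor, rose from 6.69 ± 1.33 to 13.7 ± 3.10 CPM (log2 fold change 1.02 ± 0.18, edgeR adjusted p = 0.000364). Il18r1, the ligand-binding chain for IL-18, fell from 12.2 ± 1.78 to 2.83 ± 0.987 CPM (-2.10 ± 0.22, edgeR adjusted p = 3.07e-06; SD, n = 4 in each group). Summed markers of several other cell types fell as well, as given below, and their part in the fall of Il18r1 was not tested. The partner chain gene Il18rap was not called, at 130.0 to 168 CPM in Mac and 94.8 to 159 CPM in E-Mac (-0.28 ± 0.17, edgeR adjusted p = 0.172). It passed the threshold as lower without E-Mac 4 (-0.43, edgeR adjusted p = 0.0384) and without E-Mac 2 and E-Mac 4 (-0.64, adjusted p = 1.77e-07). E-Mac 2 and E-Mac 4 were its highest E-Mac libraries (142 and 159 CPM). Leaving them out had to lower the value, so these fits are no test of Il18rap.

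Il1rl1, which encodes the IL-33 receptor ST2, had nearly equal means and unequal libraries. It stood at 51.5 to 62.1 CPM in Mac and at 40.5, 68.6, 43.8 and 85.0 CPM in E-Mac 1 to 4. E-Mac 2 and E-Mac 4 were above every Mac library, and E-Mac 1 and E-Mac 3 below every one. Its log2 fold change was 0.02 ± 0.22 (edgeR adjusted p = 0.955), and -0.47 (adjusted p = 2.84e-05) without E-Mac 2 and E-Mac 4. That fit leaves out the E-Mac libraries above Mac and keeps those below. Its value thus follows from the choice of libraries and is no test of Il1rl1.

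**Figure D3:**
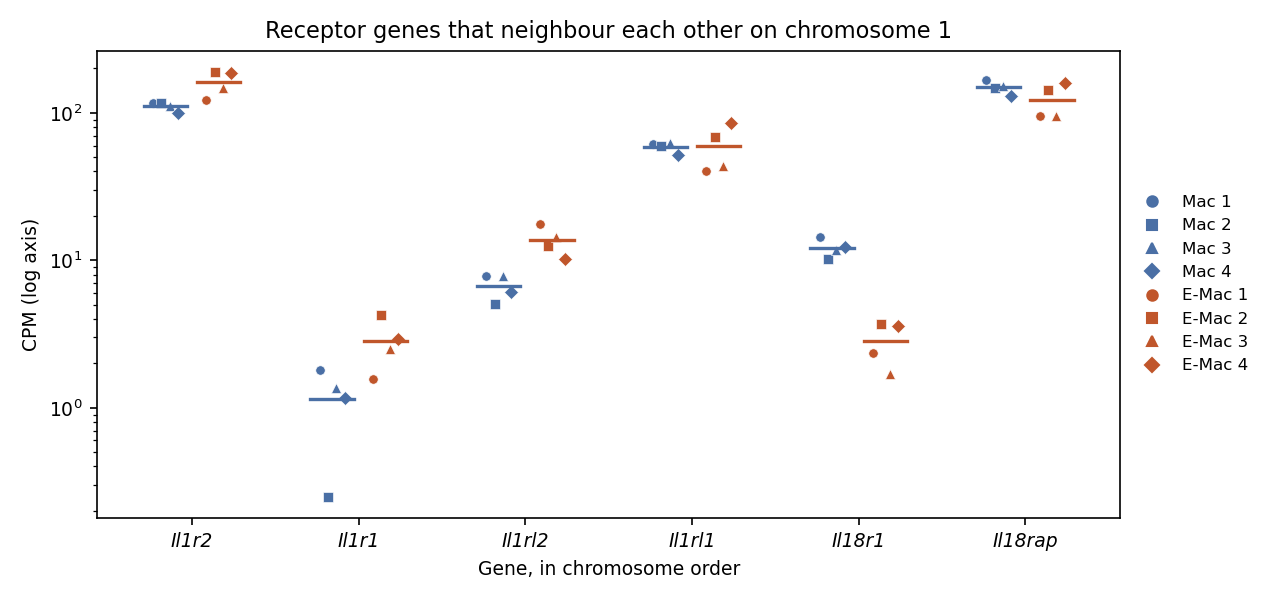
CPM (log axis) of the 6 neighbouring receptor genes, in chromosome order, with points for libraries and bars for group means. Il1rl2 is higher and Il18r1 lower in every E-Mac library, while the E-Mac libraries of Il1rl1 fall on both sides of the Mac libraries.

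Of the 7 other receptor genes listed, 5 were tested: 1 rose, 2 fell and 2 were not called, with a median log2 fold change of -0.28. Over all genes tested 29.5% were higher and 28.8% lower. Besides those of the row, Sigirr, which encodes an inhibitory receptor of the family, fell from 10.5 ± 1.19 to 3.45 ± 0.503 CPM (SD, n = 4 each; -1.60 ± 0.16, edgeR adjusted p = 1.90e-06). Il1rapl1 and Il1rapl2 had no reads. Of the 6 other ligand genes only Il1f9, the gene of IL-36 gamma, had enough reads to test. It stood at 71.9 to 83.8 CPM in Mac and at 94.2, 152, 100.1 and 159 CPM in E-Mac 1 to 4, without overlap and with E-Mac 2 and E-Mac 4 highest. Its log2 fold change was 0.71 ± 0.16 (edgeR adjusted p = 0.00364), and 0.34 without E-Mac 2 and E-Mac 4. Il33, Il1f5, Il1f6, Il1f8 and Il1f10 had between 0 and 4 reads over a whole group.

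Of 19 other genes tested from a broad list of inflammasome sensors, adaptors and related genes, 4 rose, 9 fell and 6 were not called. That stands beside 29.5% higher and 28.8% lower over all genes tested. The median log2 fold change of the 19 was -0.14. Whether they differ from Nlrp3 and Casp1 was not tested. Nlrc5, best known as an activator of MHC class I genes, rose (1.43 ± 0.07, edgeR adjusted p = 1.98e-09), as did Card19 (1.10 ± 0.08, adjusted p = 8.06e-08). Mefv, which encodes the sensor pyrin, also rose, from 93.9 ± 4.63 to 143 ± 5.52 CPM (0.61), as did Nlrc3, at 87 and 183 reads per group (1.18). Nlrx1, the gene of a mitochondrial NOD-like receptor, fell from 64.9 ± 4.11 to 24.5 ± 1.21 CPM (-1.41 ± 0.08, adjusted p = 6.79e-09), and the flagellin pathway sensor gene Nlrc4 fell by less (-0.46 ± 0.10, adjusted p = 0.00136). Also lower, and named after their values were seen, were Nlrp1a (-1.28), Naip1 (-0.98), Txnip (-0.92), Nlrp1b (-0.85) and Nek7 (-0.15).

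Aim2, whose product senses cytosolic DNA, was not called (0.14 ± 0.09, edgeR adjusted p = 0.165). Pycard, the gene of the adaptor ASC that joins NLRP3 to caspase-1, was at 49.5 to 53.6 CPM in Mac and at 54.7, 44.1, 63.9 and 40.4 CPM in E-Mac 1 to 4. The E-Mac libraries lay on both sides of the Mac libraries, E-Mac 2 and E-Mac 4 below them. Its log2 fold change was -0.03 ± 0.12 (edgeR adjusted p = 0.864), and 0.21 (adjusted p = 0.0250) without E-Mac 2 and E-Mac 4. That fit leaves out the low E-Mac libraries, so it is no test of Pycard. Naip5 and Naip6, partners of Nlrc4 named here after their values were seen, fell (-0.62 and -0.77), but they belong to a family of close copies among which reads could be split.

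Among other proteases, their inhibitors and pore formers, 8 of 13 rose, 2 fell and 3 were not called. Their median log2 fold change was 0.46. Over all genes tested 29.5% were higher and 28.8% lower. Casp4, which lies next to Casp1 (chr9:5308828-5336783) and encodes the caspase of the noncanonical inflammasome, rose from 46.4 ± 1.04 to 72.9 ± 4.41 CPM. Its log2 fold change of 0.65 ± 0.07 (edgeR adjusted p = 3.06e-06) was the same as that of Casp1 to 2 decimals. Gsdmd, whose product gasdermin D forms the pore through which IL-1 beta leaves the cell, rose from 198 ± 3.42 to 270.0 ± 20.02 CPM (0.45 ± 0.07, adjusted p = 8.66e-05). Ninj1, needed for rupture of the plasma membrane in lytic death, rose from 67.0 ± 4.54 to 273 ± 22.3 CPM (2.03 ± 0.08, adjusted p = 2.38e-10; SD, n = 4 in each group).

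The serpin genes of the list went different ways. Serpinb1a, an inhibitor of neutrophil serine proteases and of inflammatory caspases, fell from 253 ± 18.4 to 40.7 ± 3.95 CPM (SD, n = 4 each; log2 fold change -2.64 ± 0.09, edgeR adjusted p = 5.37e-11). Serpinb9, an inhibitor of granzyme B and caspase-1, rose from 4.53 ± 0.452 to 24.8 ± 2.48 CPM (2.46 ± 0.12, adjusted p = 2.40e-09). Serpinb6b, the remaining serpin gene of the list, named after its values were seen, also rose. It went from 1.31 ± 0.182 to 7.23 ± 3.04 CPM (2.46 ± 0.31, edgeR adjusted p = 1.41e-05), on 79 reads over the Mac libraries. Of the neutrophil proteases that can cut IL-1 family precursors, Elane fell (-1.06 ± 0.26, adjusted p = 0.00794), and Prtn3 (-0.44 ± 0.27, adjusted p = 0.203) and Ctsg (0.36 ± 0.27, adjusted p = 0.275) were not called. Without E-Mac 2, Ctsg was called higher (0.60, adjusted p = 0.00537; 0.66, adjusted p = 0.0125 with E-Mac 4 left out too), and with the replicate block Prtn3 was called lower (-0.51, adjusted p = 0.0314). Gsdme was not called (-0.05 ± 0.10, adjusted p = 0.678), but was called lower without E-Mac 2 and E-Mac 4 (-0.22, adjusted p = 0.0389). In E-Mac, E-Mac 2 was the lowest library for Ctsg (17.9 CPM), and E-Mac 2 and E-Mac 4 the highest for Gsdme (43.3 and 44.7 CPM). The calls of Ctsg and Gsdme with libraries left out therefore follow from that choice and are no test.

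**Figure D4:**
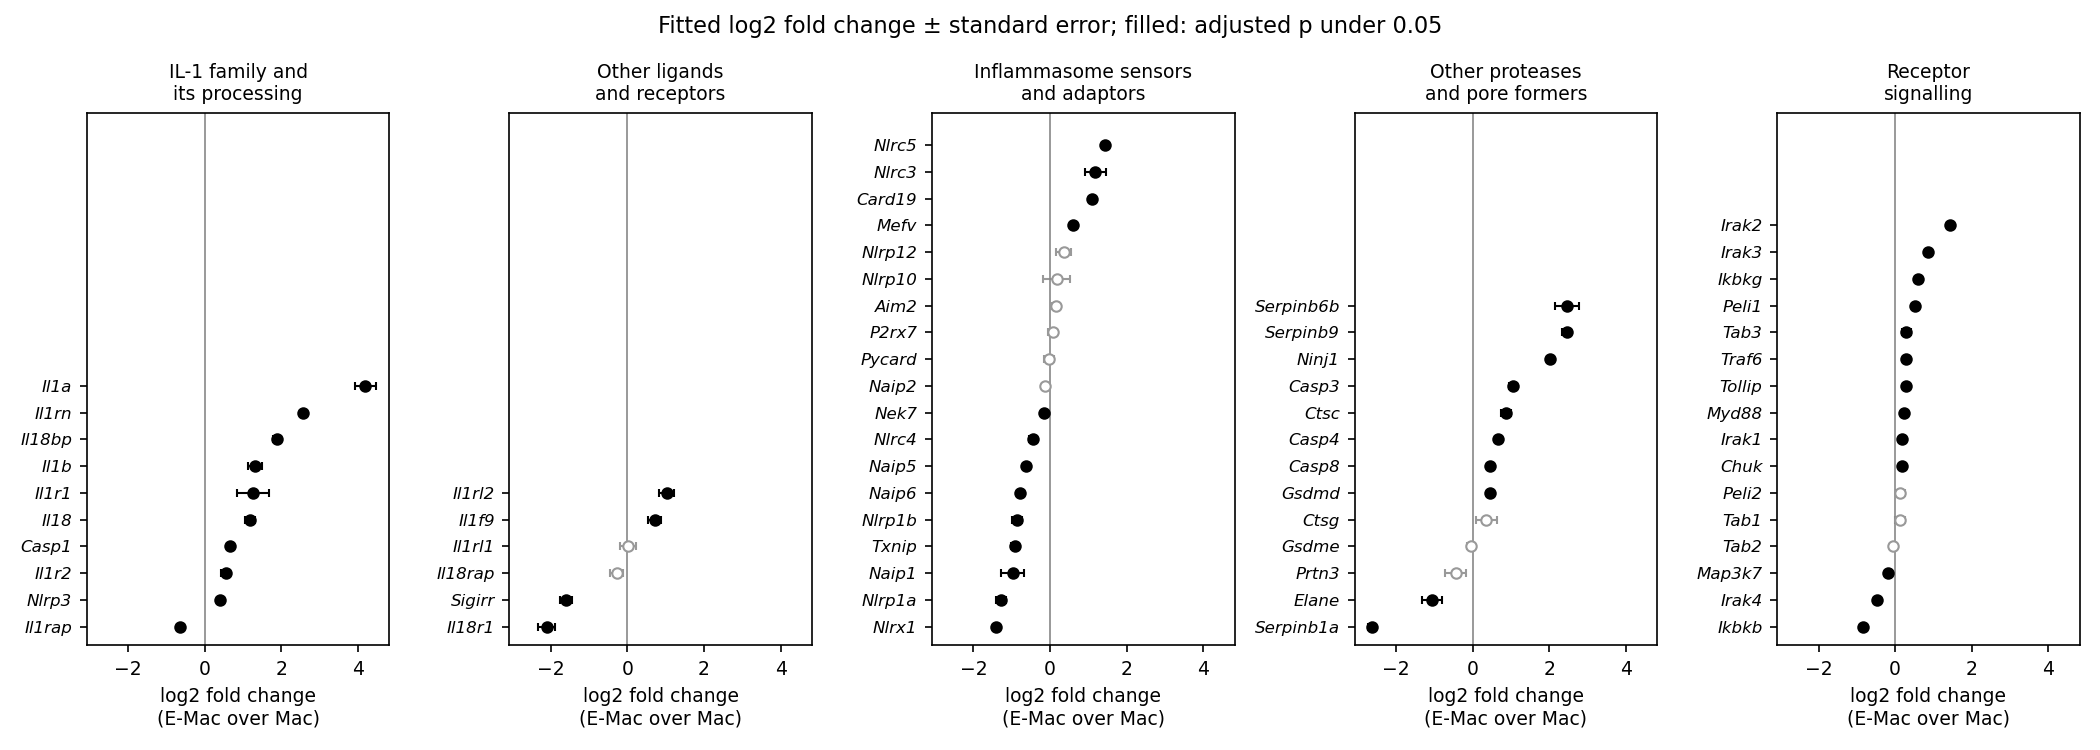
Fitted log2 fold changes (E-Mac over Mac, x axis) with standard errors for the IL-1 family genes and the other listed genes, 1 panel per list. Filled points have an edgeR adjusted p under 0.05. The IL-1 family panel has 9 genes right of 0 and 1 left of it, and the inflammasome panel has 9 filled points left of 0 and 4 right of it.

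In the signalling chain below the receptors the median log2 fold change was 0.21. Of its 16 tested genes 10 rose, 3 fell and 3 were not called, beside 29.5% higher and 28.8% lower over all genes tested. That count depends on the scaling: with library size only, where the median of all genes lies at -0.15, 4 rose and 4 fell, and with upper-quartile factors 6 rose and 3 fell. Irak2 (1.43 ± 0.08, edgeR adjusted p = 1.08e-08) and Irak3 (0.87 ± 0.07, adjusted p = 2.59e-07), genes of a kinase of the chain and of its inhibitory relative, rose under each scaling. Ikbkb (-0.84 ± 0.07, adjusted p = 3.00e-07) and Irak4 (-0.48 ± 0.08, adjusted p = 0.000124), which encode kinases of the chain, fell. Map3k7, the gene of the kinase TAK1, also fell (-0.20 ± 0.06, adjusted p = 0.0173), a call lost without a filter on low counts (adjusted p = 0.112) and without any 1 of Mac 1, Mac 3 and E-Mac 3 (adjusted p of 0.0557 to 0.0594). The adaptor gene Myd88 rose little, from 160 ± 8.20 to 189 ± 13.2 CPM (0.24 ± 0.07, adjusted p = 0.0100), and was not called with library size only (0.10, adjusted p = 0.244) or upper-quartile factors (adjusted p = 0.0828). Tab1, Tab2 and Peli2 were not called, at log2 fold changes of 0.12, -0.05 and 0.13. Tab2 was called lower with library size only (-0.20, edgeR adjusted p = 0.0299) and once E-Mac 2 and E-Mac 4 were left out (-0.15, adjusted p = 0.0211). Peli2 was called higher once E-Mac 1 was left out (0.24, edgeR adjusted p = 0.0447). E-Mac 2 and E-Mac 4 were the highest E-Mac libraries for Tab2 (290 and 299 CPM), and E-Mac 1 the lowest for Peli2 (37.0 CPM). The calls with libraries left out thus follow from that choice.

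Among genes known to be induced by IL-1, 7 of 15 tested rose, 2 fell and 6 were not called, beside 29.5% higher and 28.8% lower over all genes tested. The median log2 fold change of the 15 was 0.87. Most of these genes known to be induced by IL-1 also respond to other stimuli. Cxcl3, which encodes a neutrophil chemokine, went from 0.785 ± 0.163 to 173 ± 47.9 CPM (7.79 ± 0.30, edgeR adjusted p = 1.54e-08), on 47 reads over the 4 Mac libraries. The acute-phase gene Saa3 rose from 2.27 ± 0.354 to 52.7 ± 15.5 CPM (4.53 ± 0.24, adjusted p = 1.78e-08), and Sod2, the mitochondrial superoxide dismutase, from 39.1 ± 2.58 to 192 ± 17.3 CPM (2.30 ± 0.08, adjusted p = 1.20e-10; SD, n = 4 in each group).

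Nfkbiz, which encodes an NF-kB cofactor and is a common read-out of IL-1, fell instead. It was at 175, 424, 242 and 177 CPM in Mac 1 to 4 and at 71.2, 86.4, 68.6 and 71.5 CPM in E-Mac 1 to 4. Mac 2 was the highest, as for Il1b, and the groups did not overlap (-1.77 ± 0.29, edgeR adjusted p = 0.00106). Lcn2, which is both induced by IL-1 and a granule gene of neutrophils, fell from 2216 ± 50.8 to 662 ± 165 CPM (SD, n = 4 each; -1.74 ± 0.14, adjusted p = 3.61e-07).

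The genes whose log2 CPM followed that of Il1b most closely over the 8 libraries, among 8675 genes, were Dusp5, Hcar2 and Cdc42ep2 (Pearson r of 0.997, 0.996 and 0.996). Those closest to Il1rn were Rtp4, Slfn1 and Isg20 (r of 0.9996, 0.9996 and 0.9994). All 6 rose, so the group difference that the libraries share adds to these values, by an amount that was not computed. The values are given as a description.

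Total counts per library were between 11646025 and 15740846. The libraries carried macrophage markers in both groups: the 20 genes summed to 15479 to 16682 CPM in Mac and 12939 to 17263 CPM in E-Mac (exact two-sided permutation test, p = 0.686). Of the 19 tested, 11 rose and 4 fell. For this count and the marker counts that follow, the shares over all genes tested were 29.5% higher and 28.8% lower. Lyz2, which fell from a mean of 11204 to 6147 CPM, made up most of the mean sum of 16274 CPM in Mac. The similar sums therefore do not show that macrophage transcripts were unchanged. The libraries also carried granulocyte transcripts. The 21 granulocyte genes, none of which was without reads, summed to 35264 to 39123 CPM in Mac and to 12013, 19392, 12746 and 16841 CPM in E-Mac 1 to 4, and 14 of them fell and 3 rose. The 20 stromal genes, of which 12 were tested and 10 rose, summed to 14.2 to 16.0 CPM in Mac and to 82.6, 441, 60.3 and 486 CPM in E-Mac 1 to 4. For the granulocyte and stromal sums the exact two-sided permutation p was 0.0286, the smallest that 4 against 4 allows. Adjusted over 9 marker lists it was 0.0321. The remaining lists had the same p. Mean sums fell for monocytes (10822.5 to 7926 CPM), dendritic cells (227 to 133), T and NK cells (21.2 to 4.75) and mast cells and basophils (168 to 45.5). The B cell sum fell too (232 to 151 CPM), though 4 of its 6 tested genes rose. The endothelial sum rose (106 to 233 CPM). The stromal gene Col3a1 had no reads in Mac.

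E-Mac 2 and E-Mac 4 stood apart from E-Mac 1 and E-Mac 3 in the granulocyte and stromal sums. The same libraries were the highest E-Mac libraries for Il1b, Il1r1, Il1r2, Il1f9, Il1rl1 and Il18rap. They were also the highest for Il1rn and Il18bp, where E-Mac 4 was close to E-Mac 3 (382 against 381 and 60.3 against 58.1 CPM). For Il18 they were the lowest (34.5 and 26.5 CPM), and Il1a, Il1rap, Nlrp3 and Casp1 had neither order. Granulocyte markers with E-Mac 2 and E-Mac 4 highest, picked here after their values were seen, included Cxcr2 and Mmp9. In E-Mac 1 to 4 Cxcr2 was at 312, 556, 345 and 543 CPM and Mmp9 at 922, 1749, 1075 and 1616 CPM. Both were among the 3 of the 21 granulocyte genes that rose, while 14 fell. Not every marker had this order: Elane was at 66.0, 27.9, 70.6 and 51.8 CPM in E-Mac 1 to 4. Il1r2 is known as a gene of mature neutrophils as well as of macrophages, and Il1r1 as a gene of stromal cells. The part of these other transcripts in the results on the IL-1 family was not tested. In these bulk libraries fewer cells of a type and less RNA per cell cannot be told apart. Without E-Mac 2 and E-Mac 4 the log2 fold changes of Il1a (4.03), Il1b (1.10), Il1rn (2.50), Il18 (1.32), Il18bp (1.82), Nlrp3 (0.42), Casp1 (0.70) and Il1rap (-0.57) were all still past the threshold. E-Mac 2 and E-Mac 4 were singled out by their values here. The libraries kept, E-Mac 1 and E-Mac 3, had the lowest granulocyte sums (12013 and 12746 CPM, Mac 35264 to 39123). Their stromal sums (82.6 and 60.3 CPM) were still above Mac (14.2 to 16.0). This fit therefore does not test the part of other transcripts.

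**Figure D5:**
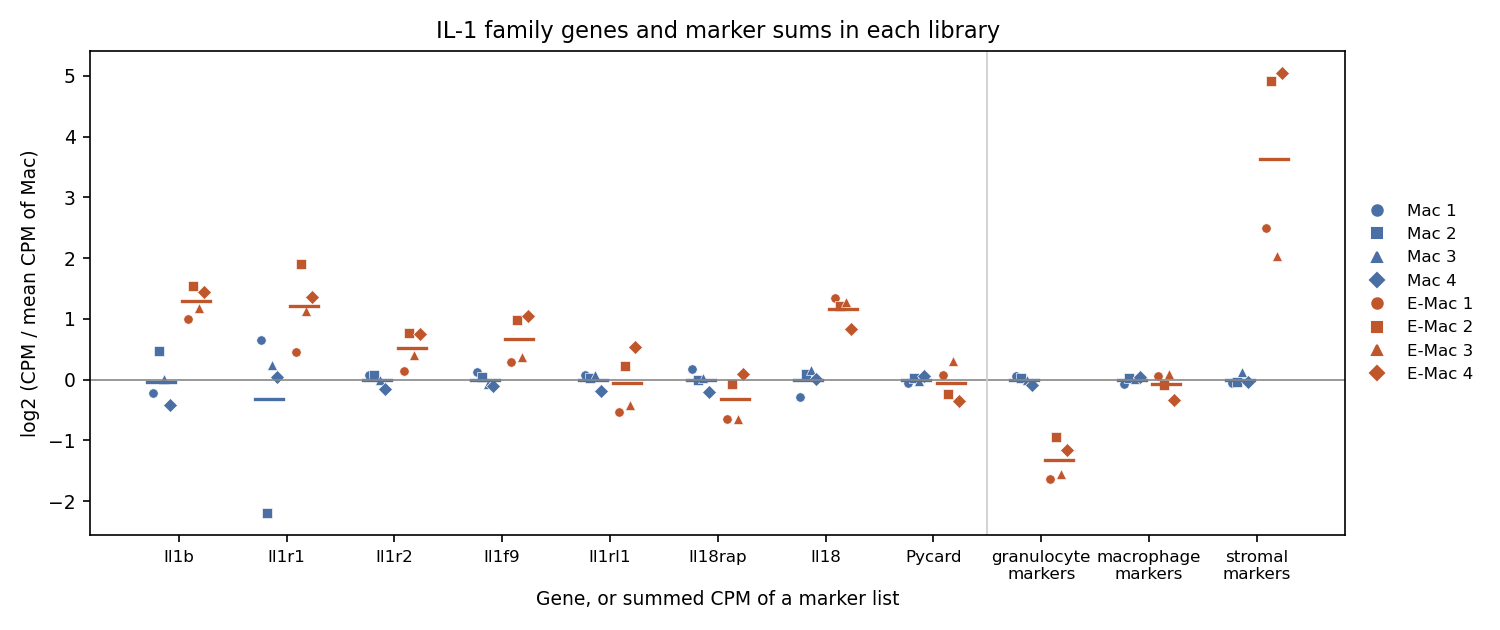
Level of 8 genes and of 3 summed marker lists in each library, as log2 of CPM over the mean CPM of Mac. Points are libraries and bars the means of the plotted values. E-Mac 2 (square) and E-Mac 4 (diamond) are above the other E-Mac libraries for Il1b, Il1r1, Il1r2, Il1f9, Il1rl1 and Il18rap and for the granulocyte and stromal sums, and below them for Il18 and Pycard.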

How the data were processed

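PolyA RNA was sequenced in 4 Mac and 4 E-Mac libraries, grouped by their titles. The authors deposited raw counts per gene symbol, 1 column per library. HISAT2, Subread (featureCounts), bcl2fastq, DESeq2 and the build mm10 are named, with no version of a tool, per the submitters' processing notes. Not given in the sources used here are the annotation release and how strand and multi-mapped reads were treated, and genes with close copies or antisense partners are uncertain. Of 53673 names, 26 that look like dates were dropped. No counts were listed for the 37 mitochondrial genes.

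Tests on counts used edgeR 4.0.16 (R 4.3.3; filterByExpr with a minimum count of 10, TMM factors, robust quasi-likelihood fit of the group over 8 libraries, Benjamini-Hochberg adjustment over 13412 genes, threshold 0.05). CPM used totals of tested genes times TMM factors. Levels per kb used all exons of GENCODE M21, and the Il36 genes were matched by their older Il1f symbols. Alternatives were other scalings, no filter, DESeq2 1.42.0, limma-voom 3.58.1, a replicate block, and libraries left out. Marker sums were compared by exact permutation in SciPy 1.17.1. The scripts were tested on simulated data. All 10 members, the 3 genes of smallest adjusted p per list, small groups of uncalled or opposing genes and 8 further genes were named. Members and lists were chosen with earlier results of these data known.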

Additional observations from a re-analysis of the deposited data

Results flagged for a closer look

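Among 120 sets of 4 libraries of a group, 7 had a library far from the other 3, by Dixon's ratio of its gap to the whole range. Chance flags about 1 in 20 such sets. Il1rap in E-Mac 1 was at 30.5 CPM, above 25.2 to 26.0 CPM in the other E-Mac libraries. The ratio of Il1rn to Il1a per length in Mac 4 was 91.0, against 34.2 to 42.3, on 4 reads of Il1a. Nlrc5 in Mac 2 was at 136 CPM, against 122 to 124 CPM. Nfkbiz in E-Mac 2 was at 86.4 CPM, against 68.6 to 71.5 CPM. The summed monocyte markers in Mac 4 were at 10980 CPM, against 10761 to 10781 CPM. Stromal markers in Mac 3 summed to 16.0 CPM, where the other Mac libraries were at 14.2 CPM. Markers of T and NK cells in E-Mac 1 summed to 5.92 CPM, against 4.31 to 4.45 CPM.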

How the results depend on the processing

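Under 16 alternatives all 10 genes kept their direction and 9 kept their call. Il1r1 lost its call with the replicate block (log2 fold change 1.26), without E-Mac 2 and 4 (0.80) and without E-Mac 2, and ranged from 0.99 to 1.55 with 1 library left out. No pairing of libraries by replicate number is stated in the sources used here. Deviations from the group mean of libraries with the same number correlated at -0.04, 0.03, 0.01 and -0.11. These values show no sign of pairing but cannot exclude it. With the replicate block 7458 genes were called in place of 7814. Il1rl1 changed sign with upper-quartile factors (-0.075), library size only (-0.13), limma-voom (-0.045), the replicate block (-0.044) and without E-Mac 2 and 4 (-0.47), and ranged from -0.20 to 0.17 with 1 library left out. Pycard changed sign without a filter (0.00081) and without E-Mac 2 and 4 (0.21; -0.15 to 0.074 with 1 left out), Peli2 with library size only (-0.010) and without E-Mac 2 and 4 (-0.10), Tab1 with library size only (-0.022), and Gsdme with 1 left out (-0.11 to 0.018). The log2 ratio of summed macrophage markers, -0.06, was 0.069 without E-Mac 2 and 4 and -0.11 to 0.021 with 1 left out. The causes were not tested. Higher and lower calls were 3954 and 3860, but 2996 and 5018 with library size only and 3314 and 4610 with upper-quartile factors. Of 35 other named genes 24 kept sign and call. Depth limits Il1a in Mac, at 4 to 11 reads, and Il1r1, at 3 to 62.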
